A study of Rattus norvegicus with 48 samples.

Results

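The 8 genes described here mark dividing cells from DNA replication to the end of mitosis. They were taken as 8 fixed rat Ensembl IDs out of the 32883 genes in the count table: ENSRNOG00000021264 (Pcna), ENSRNOG00000053047 (Top2a), ENSRNOG00000015423 (Ccna2), ENSRNOG00000000632 (Cdk1), ENSRNOG00000058539 (Ccnb1), ENSRNOG00000018815 (Plk1), ENSRNOG00000005659 (Aurkb) and ENSRNOG00000028137 (Mki67). The symbols came with the list of IDs, and neither the deposited files nor the reference table used here pairs Ensembl IDs with symbols. All 8 passed the filter on low counts that left 14775 genes to test. They were measured by RNA sequencing in 48 libraries of rat liver cut into precision slices, thin living sections kept outside the body, in a model for evaluating compounds against fibrosis. Slices of bile duct-ligated (BDL) rats, whose blocked bile flow leads to fibrosis around the ducts, were given SB525334 (BDL_SB525334, n = 9), Nint (BDL_Nint, n = 10), Sora (BDL_Sora, n = 10) or vehicle (BDL_veh, n = 10), and slices of sham-operated rats were given vehicle (Sham_veh, n = 9). SB525334 inhibits ALK5, the TGF-beta type I receptor kinase, and Nint and Sora are read here as nintedanib and sorafenib, 2 inhibitors of several tyrosine kinases. In the deposited sample sheet all 9 BDL_SB525334 libraries carry a different compound code, and the name used here is that of the labels. The sources used here give no strain, sex, age, dose, exposure time or animal for a slice, so p-values measure the spread between libraries, which may be technical.

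Adult liver cells rarely divide, and injury to bile ducts brings cells of the ducts, the scar-forming stroma and the hepatocytes back into cycle. Entry into S phase depends on E2F factors, which raise replication genes such as Pcna, the ring that holds DNA polymerase on its template. Later genes are raised by complexes that bind the CHR element and the CCAAT box, which NF-Y recognises. Ccna2 encodes cyclin A2, the partner of cyclin-dependent kinases in S and G2 phase, and Top2a the topoisomerase that untangles replicated chromosomes. Cdk1 with its partner cyclin B1, encoded by Ccnb1, drives entry into mitosis. Polo-like kinase 1 (Plk1) and aurora kinase B (Aurkb) act on spindle, kinetochores and cell separation. Mki67 encodes the Ki-67 protein that coats mitotic chromosomes and is used to stain cycling cells.

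The upstream sequences of 5 of these genes are shown because the genes parted ways in the data: Ccnb1 and Plk1 were lower in ligated than in sham slices, Top2a and Cdk1 were higher, and Pcna was the only member called higher with SB525334 than with vehicle, a call that total counts and the fit with a quality covariate did not give. They come from RefSeq on build GRCr8, while the submitters' processing notes name Rnor_6.0 for the counts. Each is printed 5′ to 3′ on the gene's strand, with capitals for CHR (the letters TTTGAA), the CCAAT box and an E2F core on either strand. The core was searched as TTCCCGC, with 3 variants that read TTCGCGC and TTGCCGC and TTGGCGC. They end at the base before the gene's first annotated base, so that for Cdk1 the last printed base is 42 bases before the start site, and lie at chr2:33655226-33655475, minus strand (Ccnb1), chr1:186147408-186147657, plus strand (Plk1), chr10:84473094-84473343, minus strand (Top2a), chr20:19265043-19265251, plus strand (Cdk1) and chr3:139955821-139956070, minus strand (Pcna).
Ccnb1: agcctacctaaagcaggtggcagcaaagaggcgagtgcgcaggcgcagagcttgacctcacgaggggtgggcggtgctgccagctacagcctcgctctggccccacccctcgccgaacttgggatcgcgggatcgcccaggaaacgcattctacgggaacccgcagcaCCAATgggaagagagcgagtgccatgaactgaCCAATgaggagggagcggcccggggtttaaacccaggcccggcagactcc
Plk1: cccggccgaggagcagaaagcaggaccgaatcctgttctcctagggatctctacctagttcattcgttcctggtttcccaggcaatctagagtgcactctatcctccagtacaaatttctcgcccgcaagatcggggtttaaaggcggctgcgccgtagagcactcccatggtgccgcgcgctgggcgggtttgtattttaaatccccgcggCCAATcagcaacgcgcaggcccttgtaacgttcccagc
Top2a: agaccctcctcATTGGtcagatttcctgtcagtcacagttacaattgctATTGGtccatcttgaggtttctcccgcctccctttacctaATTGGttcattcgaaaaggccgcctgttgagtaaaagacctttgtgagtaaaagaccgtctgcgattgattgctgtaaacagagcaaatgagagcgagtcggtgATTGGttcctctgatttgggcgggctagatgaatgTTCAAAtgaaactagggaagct
Cdk1: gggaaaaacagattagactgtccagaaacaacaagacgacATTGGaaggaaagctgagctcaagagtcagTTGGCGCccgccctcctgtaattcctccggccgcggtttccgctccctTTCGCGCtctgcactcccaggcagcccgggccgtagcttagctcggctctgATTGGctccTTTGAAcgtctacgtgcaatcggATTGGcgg
Pcna: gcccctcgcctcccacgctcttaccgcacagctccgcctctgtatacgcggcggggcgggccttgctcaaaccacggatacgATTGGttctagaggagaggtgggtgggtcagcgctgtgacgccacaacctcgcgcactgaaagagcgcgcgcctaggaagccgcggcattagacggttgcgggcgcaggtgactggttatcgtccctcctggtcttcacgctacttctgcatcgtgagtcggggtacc

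Over full windows of 300 bases, 250 before and 50 after the start site, Ccnb1 held 2 CCAAT boxes and no match to the other letters. Plk1 held 1 CCAAT box and 1 CHR match, which lies 7 bases past the start site and is not printed. Top2a held 4 CCAAT boxes and 1 CHR match, and Cdk1 held 3 CCAAT boxes, 2 CHR matches, of which the one 16 bases before the start site is not printed, and 2 E2F cores. Pcna held 1 CCAAT box. Mki67, which is not printed because its window lies inside the annotated gene, held 4 CCAAT boxes, 2 CHR matches and 1 E2F core. Of all 33469 such windows in the table, 37.5% held a CCAAT box, 18.3% a CHR match and 9.52% an E2F core. All 6 members with a window in the table, Ccna2 and Aurkb not among them, held a CCAAT box. Of the pair that was lower after ligation, Plk1 has a match to TTTGAA and Ccnb1 none. CHR was searched by these letters alone, so other forms of the element would not be seen. Whether the upstream sequences set this pair apart was not tested. A match is a description of the sequence only.

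Total counts ranged from 12249454 to 29596955 per library, and no member was at 0 in any library. The sparsest values were 9 counts, of Ccna2 and of Aurkb, each in a sham library. Levels are CPM, counts scaled to a common library size with TMM factors, and they are compared between groups and not between genes, since they are not per length. BDL_SB525334 and Sham_veh libraries stood apart from the other groups in composition as well. The mitochondrial share of mapped alignments, from the authors' quality metrics, was 2.19 to 4.49% in BDL_SB525334, 1.37 to 1.64% in BDL_Nint, 1.54 to 1.86% in BDL_Sora, 1.33 to 1.54% in BDL_veh and 2.02 to 2.46% in Sham_veh. The intronic share was 25.98 to 33.11% in BDL_SB525334, 34.29 to 36.36% in BDL_Nint, 31.4 to 34.86% in BDL_Sora, 33.74 to 36.76% in BDL_veh and 24.36 to 31.06% in Sham_veh. The share of reads mapped to several places was 9.85 to 20.85% in BDL_SB525334 and 10.17 to 12.66% in Sham_veh. It was 8.2 to 8.76% in BDL_Nint, 8.01 to 9.25% in BDL_Sora and 8.1 to 8.89% in BDL_veh. No marker list of another cell type could be used here, because no source used here pairs its symbols with the IDs.

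**Figure D1:**
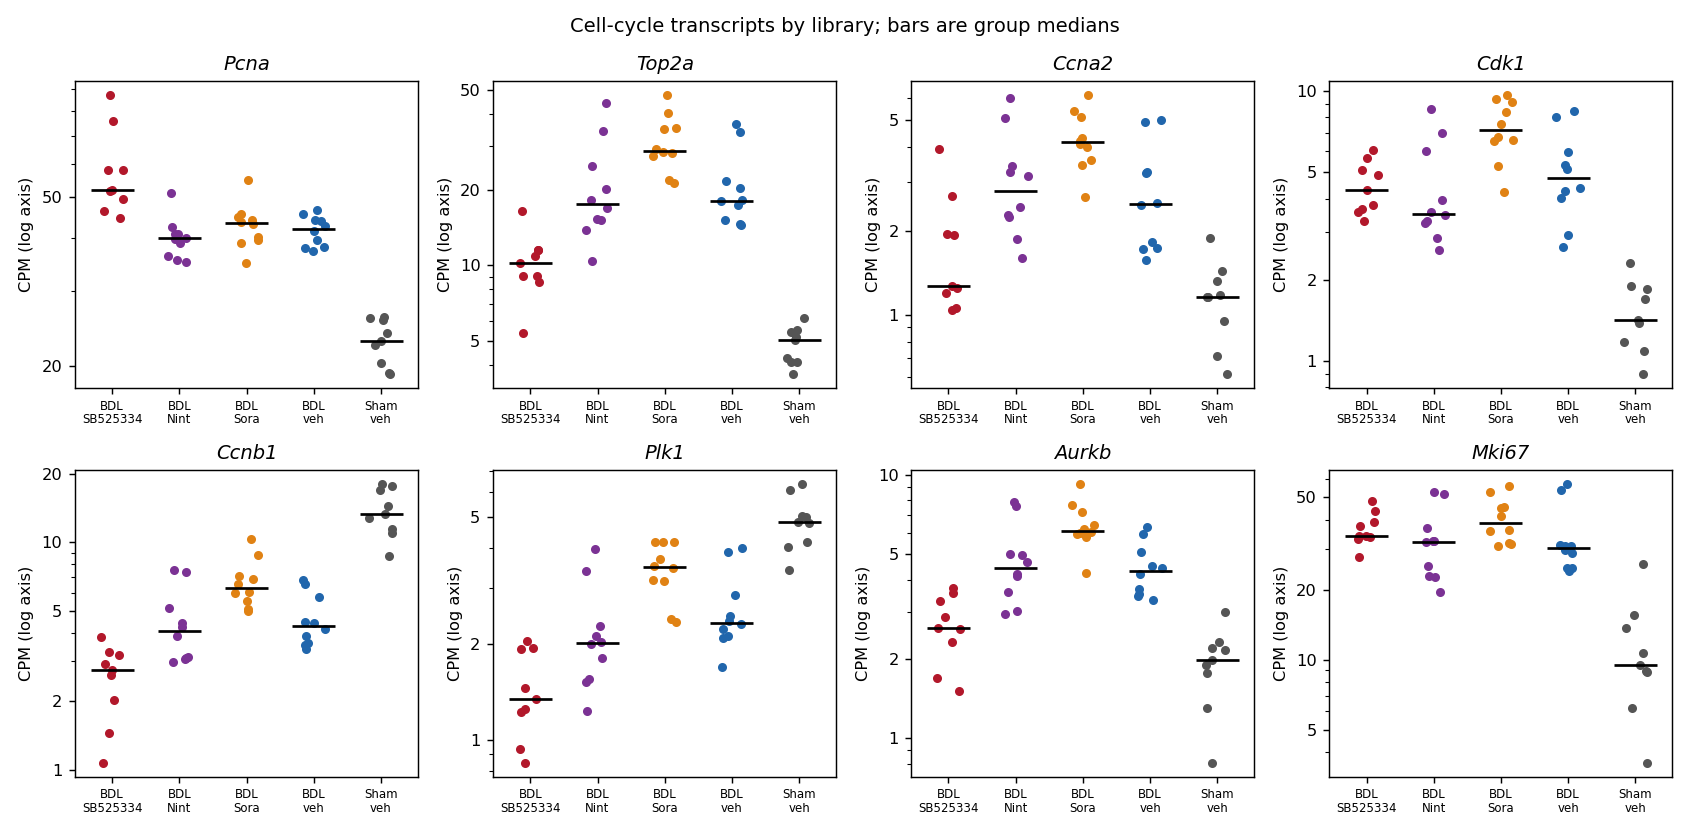
Level of each of the 8 transcripts (y axis, CPM on a log axis) in every library, by group (x axis); each point is 1 library and each bar the group median. Sham_veh is the lowest group for 6 genes and the highest for Ccnb1 and Plk1, and BDL_SB525334 is the highest group for Pcna, with a median of 52.2 CPM.

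Ligation changed all 8 transcripts, 6 upwards and 2 downwards. The comparison of BDL_veh with Sham_veh slices asks what the operation does to the tissue. Pcna, Top2a, Ccna2, Cdk1, Aurkb and Mki67 rose, and Ccnb1 and Plk1 fell (quasi-likelihood test in edgeR, called where the p adjusted after Benjamini and Hochberg was under 0.05; n = 10 and 9). Of all 14775 genes tested, 82.2% were called in this comparison, 40% higher and 42.2% lower, so a count of 8 of 8 is near the background and is not in itself a result about these genes. The median log2 fold change was 1.24 over the 8 members and -0.045 over all genes tested. In 5 of the 8 the groups did not overlap at all, 4 higher and 1 lower, where 52.6% of all genes did not, 27.5% higher and 25.2% lower. Fewer cells of a type and less RNA per cell cannot be told apart in such bulk tissue.

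Among Pcna, Ccna2 and Top2a, Top2a changed most. It ran from 14.4 to 36.6 CPM (median 18.1) in BDL_veh slices and from 3.68 to 6.16 CPM (median 5.04) in Sham_veh slices. Every ligated library thus lay above every sham library, and the fold change was 4.34 (log2 2.12, SE 0.225, edgeR adjusted p = 7.64e-12). Pcna had 37.3 to 46.6 CPM (median 42.2) in BDL_veh and 19.1 to 26.1 CPM (median 22.9) in Sham_veh slices, again with no overlap. Its rise was the smallest of the 6, at 1.83-fold (log2 0.87, SE 0.0935, edgeR adjusted p = 8.02e-12), and it varied least between ligated vehicle libraries, with a coefficient of variation of 8.06%. Ccna2, the S and G2 phase cyclin, had 1.57 to 5.004 CPM (median 2.49) in BDL_veh and 0.613 to 1.88 CPM (median 1.16) in Sham_veh slices. Those ranges overlapped, because Sham_veh library 1 lay above 4 ligated libraries, and the fold change was 2.44 (log2 1.29, SE 0.265, edgeR adjusted p = 2.18e-05). With the first principal component of the authors' quality metrics as a covariate, Ccna2 was no longer called (log2 fold change 0.70, edgeR adjusted p = 0.162).

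The mitotic genes split. Cdk1 had 2.64 to 8.45 CPM (median 4.76) in BDL_veh and 0.897 to 2.32 CPM (median 1.42) in Sham_veh slices, with no overlap and a rise of 3.32-fold (log2 1.73, SE 0.226, edgeR adjusted p = 1.82e-09). Ccnb1, the cyclin that Cdk1 needs to start mitosis, did the opposite. It had 3.40 to 6.83 CPM (median 4.28) in BDL_veh and 8.74 to 18.1 CPM (median 13.3) in Sham_veh slices. Every ligated library lay below every sham library, a level 2.97-fold lower (log2 -1.57, SE 0.187, edgeR adjusted p = 1.5e-10). Plk1, the mitotic kinase, went the same way as Ccnb1, with 1.69 to 3.99 CPM (median 2.33) in BDL_veh and 3.41 to 6.37 CPM (median 4.84) in Sham_veh slices. Only the top of the ligated range reached the bottom of the sham range, and the level was 1.87-fold lower (log2 -0.91, SE 0.176, edgeR adjusted p = 8.75e-06). Aurkb, the other mitotic kinase, had 3.33 to 6.36 CPM (median 4.32) in BDL_veh and 0.807 to 3.004 CPM (median 1.99) in Sham_veh slices. It rose by 2.28-fold with no overlap (log2 1.19, SE 0.192, edgeR adjusted p = 2.48e-07).

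Mki67, the staining marker of cycling cells, had 23.95 to 57.1 CPM (median 30.2) in BDL_veh and 3.61 to 25.7 CPM (median 9.45) in Sham_veh slices. It rose by 2.95-fold (log2 1.56, SE 0.225, edgeR adjusted p = 2.35e-08). Sham libraries differed more in Mki67 than in any other member, with a highest value 7.11 times the lowest, against 1.37 times for Pcna. Sham_veh library 1 set the top of that range. It was the highest of the 9 in Mki67 and the lowest in Top2a (3.68 CPM), Cdk1 (0.897 CPM) and Aurkb (0.807 CPM). It is also the only sham library within the ligated range of Mki67. The directions of all 8 members were the same with TMM factors, RLE factors, total counts and DESeq2, and all 8 were called with each of these. With total counts the log2 median of all genes was 0.305, Ccnb1 was at -1.22 and Plk1 at -0.56; 66.1% of all calls were then higher, against 48.7% with TMM factors.

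With SB525334, 5 members were called lower than with vehicle and 1 higher. In BDL_SB525334 against BDL_veh slices, which asks what blocking ALK5 does to ligated tissue, Top2a, Ccna2, Ccnb1, Plk1 and Aurkb fell, Pcna rose, and Cdk1 and Mki67 were not called (edgeR adjusted p under 0.05, n = 9 and 10). The background is 73% of all genes called, 38.2% higher and 34.8% lower. A count of 6 of 8 in mixed directions is thus near it and is not in itself a result about these genes. The median log2 fold change was -0.67 over the members and 0.036 over all genes. The split rests in part on the scaling. With total counts the median of all genes was -0.377, 24.5% of all calls were higher against 52.3% with TMM factors, and the members stood at 0 higher and 6 lower, with Pcna at 0.053 (edgeR adjusted p = 0.596).

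Pcna had 44.7 to 87.3 CPM (median 52.2) in BDL_SB525334 slices, and the vehicle range of 37.3 to 46.6 CPM reaches only its low end. It rose by 1.39-fold (log2 0.48, SE 0.0911, edgeR adjusted p = 9.1e-06), and libraries 4 and 5 were highest, at 87.3 and 75.9 CPM. Of the 48 libraries, SB525334 library 4 had the highest mitochondrial share (4.49%) and the lowest TMM factor (0.775). Its share of reads mapped to several places (20.85%) was also the highest. Scaled by total counts alone, libraries 4 and 5 had 67.6 and 62.9 CPM of Pcna. The other SB525334 libraries then had 36.3 to 48.8 CPM, and vehicle libraries 42.2 to 51.0 CPM. With TMM factors, Top2a moved the other way from Pcna. It had 5.34 to 16.5 CPM (median 10.2) in BDL_SB525334 slices, where vehicle slices had a median of 18.1 CPM, a level 2.04-fold lower (log2 -1.03, SE 0.213, edgeR adjusted p = 3.31e-05). SB525334 library 6 alone lay within the vehicle range. Ccna2 had 1.04 to 3.94 CPM (median 1.27) in BDL_SB525334 slices, against a vehicle median of 2.49 CPM, and its fall had the highest adjusted p of the 5 (log2 -0.62, SE 0.256, edgeR adjusted p = 0.0272). It was not called without vehicle libraries 3 and 6 (log2 -0.33, edgeR adjusted p = 0.24), nor without any single one of vehicle libraries 3 and 6 and SB525334 libraries 2, 3, 4, 5 and 7, where its adjusted p reached 0.0767.

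Of the mitotic genes, Ccnb1 had 1.07 to 3.83 CPM (median 2.75) in BDL_SB525334 slices, with a vehicle median of 4.28 CPM. Its level was 1.80-fold lower (log2 -0.85, SE 0.203, edgeR adjusted p = 0.000241), with SB525334 library 2 alone within the vehicle range. Plk1 had 0.848 to 2.05 CPM (median 1.34), against a vehicle median of 2.33 CPM, and was 1.78-fold lower with overlapping ranges (log2 -0.83, SE 0.192, edgeR adjusted p = 0.000153). These 2 genes, already lower in ligated than in sham slices, thus lay lower still with the compound. Aurkb had 1.51 to 3.73 CPM (median 2.63) in BDL_SB525334 slices, with a vehicle median of 4.32 CPM, and was 1.65-fold lower, again with some overlap (log2 -0.72, SE 0.189, edgeR adjusted p = 0.000726). Cdk1 was not called and had 3.30 to 6.07 CPM (median 4.32) in BDL_SB525334 slices, beside a vehicle median of 4.76 CPM. Its log2 fold change was -0.19 (95% interval -0.61 to 0.23, edgeR adjusted p = 0.423). Mki67 had 27.6 to 48.1 CPM (median 34.2), beside a vehicle median of 30.2 CPM, and its log2 fold change was 0.13 (95% interval -0.30 to 0.56, edgeR adjusted p = 0.586). With total counts Cdk1 fell (log2 -0.59, edgeR adjusted p = 0.0106) and Mki67 turned to -0.27.

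With the quality component as a covariate, 2 of the 8 members were still called in this comparison, Top2a (log2 -0.89, edgeR adjusted p = 0.0346) and Ccnb1 (log2 -0.90, edgeR adjusted p = 0.026). Pcna was then at 0.21, Ccna2 at -0.10, Plk1 at -0.70 and Aurkb at -0.64, none of them called. The metrics behind this component include the mitochondrial, intronic and multiply mapped shares. None of these overlapped between BDL_veh libraries and those of BDL_SB525334 or Sham_veh. A call lost in such a fit therefore cannot tell library quality from group. There were also 6 calls without SB525334 libraries 1, 6 and 8, which had the lowest shares of reads mapped to several places in that group. In this share they lay nearest to the vehicle libraries, and they were the highest of their group in Top2a and Ccna2. Leaving them out keeps the libraries farther from vehicle, so it cannot show whether the calls depend on that share.

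**Figure D2:**
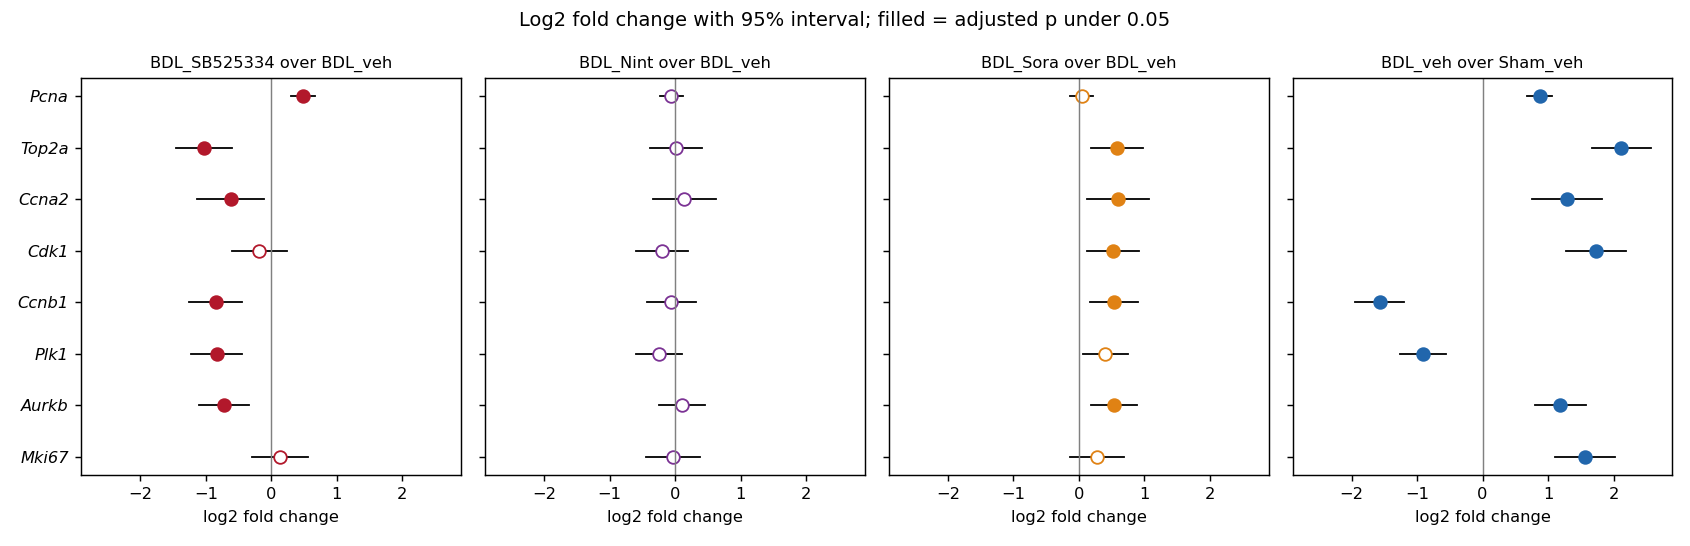
Log2 fold change (x axis) of each gene (y axis) in 4 comparisons, with its 95% interval; filled points passed an adjusted p of 0.05 and open points did not. Ligation parts Ccnb1 and Plk1 from the other 6, SB525334 parts Pcna from the 5 genes that fell, and no interval of Nint against vehicle excludes 0.

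The same 9 libraries were also set against sham; this comparison and that with vehicle share them, as the compounds share the vehicle and the sham libraries. All 8 members were called in BDL_SB525334 against Sham_veh slices, 6 higher and 2 lower, where 81.2% of all genes were called, 42.9% higher and 38.4% lower. Pcna was 2.55-fold higher and Mki67 3.24-fold higher in BDL_SB525334 (edgeR adjusted p = 1.45e-17 and 6.37e-09, n = 9 and 9). Top2a was 2.12-fold higher (edgeR adjusted p = 4e-05), but was not called with limma-voom (log2 0.85, adjusted p = 0.0875). Ccnb1 was 5.35-fold lower and Plk1 3.34-fold lower (edgeR adjusted p = 6.78e-15 and 2.97e-11), with no overlap in either gene. In 5 members the groups did not overlap, 3 higher and 2 lower, where 41.5% of all genes did not, 23.6% higher and 17.9% lower. Cdk1 was 2.92-fold higher (edgeR adjusted p = 6.32e-08). Ccna2 and Aurkb came nearest to the sham level, 1.59-fold and 1.39-fold higher (edgeR adjusted p = 0.0274 and 0.0306). Neither of these was called without SB525334 libraries 1, 6 and 8 (adjusted p = 0.602 and 0.226), and leaving out SB525334 library 6 or 8 alone also ended both calls. The call of Ccna2 was lost too without Sham_veh library 4 or 9, and that of Aurkb without SB525334 library 2 or Sham_veh library 1 or 8. Over all libraries left out singly, the adjusted p reached 0.145 for Ccna2 and 0.0749 for Aurkb.

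With Sora, 5 members were called higher than with vehicle, near the threshold. In BDL_Sora against BDL_veh slices, Top2a, Ccna2, Cdk1, Ccnb1 and Aurkb rose and none fell (edgeR adjusted p under 0.05, n = 10 and 10), where 29.3% of all genes were called, 16.3% higher and 13% lower. The median log2 fold change was 0.53 over the members and 0.022 over all genes tested. Unlike ligation, Sora put Ccnb1 on the same side as Cdk1. The 5 log2 fold changes lay between 0.53 and 0.60, so about 1.44- to 1.52-fold.

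Top2a had 21.3 to 47.8 CPM (median 28.7) in BDL_Sora slices, against a vehicle median of 18.1 CPM (log2 0.58, SE 0.198, edgeR adjusted p = 0.0222). Ccna2 had 2.64 to 6.14 CPM (median 4.15), against a vehicle median of 2.49 CPM (log2 0.60, SE 0.234, edgeR adjusted p = 0.0457). The ranges overlapped in both, with vehicle libraries 3, 5 and 6 inside the Sora range of Top2a and these and library 10 inside that of Ccna2. Cdk1 had 4.22 to 9.68 CPM (median 7.19) in BDL_Sora slices, against a vehicle median of 4.76 CPM (log2 0.53, SE 0.197, edgeR adjusted p = 0.0374). Ccnb1 had 4.99 to 10.3 CPM (median 6.30), against a vehicle median of 4.28 CPM (log2 0.53, SE 0.183, edgeR adjusted p = 0.023). Aurkb had 4.22 to 9.24 CPM (median 6.14), against a vehicle median of 4.32 CPM (log2 0.54, SE 0.173, edgeR adjusted p = 0.0141). Of the members without a call, Plk1 had 2.35 to 4.18 CPM (median 3.49) and a log2 fold change of 0.41 (95% interval 0.059 to 0.75, edgeR adjusted p = 0.0704). Mki67 had 30.7 to 56.0 CPM (median 38.9) and a log2 fold change of 0.28 (95% interval -0.14 to 0.69, edgeR adjusted p = 0.342). Pcna had 34.9 to 54.9 CPM (median 43.5) and a log2 fold change of 0.044 (95% interval -0.13 to 0.22, edgeR adjusted p = 0.766), so that its interval holds no rise as large as those of the 5 genes.

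These calls were near the threshold. The count of 5 was 3 with RLE factors and with DESeq2, 2 with total counts and 7 without vehicle libraries 3 and 6, always upwards. It was 1 without Sora library 5, 2 without Sora library 6, and 3 without any single one of Sora libraries 3, 7 and 9 and vehicle libraries 1, 4, 8 and 9. In the 20 fits with 1 library left out, Ccna2 lost its call in 13, Cdk1 in 10, Ccnb1 in 2 and Top2a in 1. Aurkb kept its call in all of them (highest edgeR adjusted p = 0.0375). The share of higher calls over all genes was 44.8%, 44.9% and 38.1% with RLE factors, DESeq2 and total counts, against 55.7% with TMM factors.

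No member was called with Nint. In BDL_Nint against BDL_veh slices 0 of 8 were called (edgeR adjusted p under 0.05, n = 10 and 10), while 24.3% of all genes were, 13.3% higher and 10.9% lower. None had an unadjusted p under 0.05, and DESeq2, limma on the authors' log2 CPM and limma-voom also called 0. The log2 fold changes lay between -0.24 (Plk1, 95% interval -0.60 to 0.11) and 0.14 (Ccna2, 95% interval -0.33 to 0.62). The interval was narrowest for Pcna (-0.24 to 0.12), which had 35.2 to 51.3 CPM (median 40.0) in BDL_Nint slices and a vehicle median of 42.2 CPM. Top2a had 10.4 to 44.4 CPM (median 17.6), a wider range than in the other groups. Ccna2 had a median of 2.79 CPM, Cdk1 3.51 CPM, Ccnb1 4.05 CPM, Plk1 2.02 CPM, Aurkb 4.42 CPM and Mki67 32.2 CPM in BDL_Nint slices. Against Sham_veh slices all 8 were called in BDL_Nint, 6 higher and 2 lower, where 80.9% of all genes were called, 40% higher and 40.9% lower. The same held in BDL_Sora, where 80.4% of all genes were called, 40.1% higher and 40.3% lower. Ccnb1 was 3.09-fold lower in BDL_Nint and 2.05-fold lower in BDL_Sora than in Sham_veh slices (edgeR adjusted p = 6.56e-11 and 1.53e-06). Plk1 was 2.22-fold lower in BDL_Nint and 1.41-fold lower in BDL_Sora (edgeR adjusted p = 1.16e-07 and 0.00812). In BDL_Sora the fall of Plk1 was not called with total counts (log2 -0.21, adjusted p = 0.282).

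Direct comparisons of the compounds put BDL_SB525334 lowest for the falling genes. Doses and exposure times are unknown, so whether exposure was matched cannot be stated. Between BDL_SB525334 and BDL_Sora slices 7 members were called, Pcna higher and 6 lower, where 72.4% of all genes were called, 36.1% higher and 36.3% lower. Top2a was 3.05-fold lower, Ccnb1 2.60-fold, Aurkb 2.40-fold, Plk1 2.36-fold, Ccna2 2.34-fold and Cdk1 1.64-fold lower in BDL_SB525334 (edgeR adjusted p = 6.35e-09, 4.75e-08, 7.48e-08, 1.5e-07, 3.41e-05 and 0.00208). In Top2a, Ccnb1, Plk1 and Aurkb the 9 and 10 libraries did not overlap, where 31.3% of all genes did not, 17.2% higher and 14.1% lower. Mki67 was at -0.14 (95% interval -0.57 to 0.28), and with total counts it fell (log2 -0.495, edgeR adjusted p = 0.0307). Between BDL_SB525334 and BDL_Nint slices 6 were called, Pcna higher and 5 lower, where 72.7% of all genes were called, 36.4% higher and 36.3% lower. Top2a was 2.07-fold, Aurkb 1.77-fold, Ccnb1 1.73-fold, Ccna2 1.70-fold and Plk1 1.505-fold lower in BDL_SB525334 (edgeR adjusted p = 2.65e-05, 0.00014, 0.000613, 0.00702 and 0.00622). Pcna was 1.35-fold higher than in BDL_Sora and 1.45-fold higher than in BDL_Nint (edgeR adjusted p = 4.23e-05 and 1.26e-06), but with total counts neither was called (log2 0.066 and 0.138). With the quality component as a covariate, Pcna (adjusted p = 0.189), Ccna2 (0.0592) and Cdk1 (0.0539) were not called over BDL_Sora. Over BDL_Nint, Pcna (adjusted p = 0.0676), Ccna2 (log2 -0.32, adjusted p = 0.488) and Plk1 (log2 -0.47, adjusted p = 0.191) were then not called. Cdk1, at a log2 difference of 0.013 (95% interval -0.41 to 0.43), and Mki67, at 0.16 (95% interval -0.26 to 0.59), were not called over BDL_Nint.

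Between Nint and Sora 2.32% of all genes were called, 1.37% higher and 0.948% lower, and Cdk1 and Plk1 were among them. Cdk1 was 1.66-fold lower in BDL_Nint than in BDL_Sora slices (log2 -0.73, SE 0.199, edgeR adjusted p = 0.0359), and Plk1 was 1.57-fold lower (log2 -0.65, SE 0.175, edgeR adjusted p = 0.0322). All 8 differences had the same sign, with a median log2 fold change of -0.51 against -0.0079 over all genes, and 5 had an unadjusted p under 0.05. These are not 8 separate results, since the same libraries were high in most members. Sora library 5 led its group in all 8. The count of 2 was unstable: leaving out 1 library at a time gave 0 to 4, with 0 without Sora library 5, 6 or 7 or Nint library 1, 3, 5, 7, 8 or 9, and 1 without Sora library 8, 9 or 10 or Nint library 2 or 6. It was 4 without Nint library 4.

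In the vehicle, Nint and Sora groups the same libraries were high in nearly every member. Sora library 5 was the highest of 10 in all 8 genes. Vehicle libraries 3 and 6 held the top 2 places of their group in all 8, and Nint library 4 was among the top 2 in all 8 and Nint library 10 in 7. In vehicle library 6, Ccna2 was at 5.004 CPM and Plk1 at 3.99 CPM, and the highest of the libraries other than 3 and 6 were at 3.24 and 2.85 CPM. Ccnb1 and Plk1 followed the other genes in these libraries, although they parted from them between ligated and sham slices. The pattern was looser with SB525334, where library 6 led in 4 genes and library 4, the highest in Pcna, was the lowest in 3. It was looser still in sham slices, where no library was among the top 2 in more than 4 genes. The labels do not tie libraries to animals, so whether such libraries share a rat cannot be told, and their part in the results above was tested only by leaving them out.

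**Figure D3:**
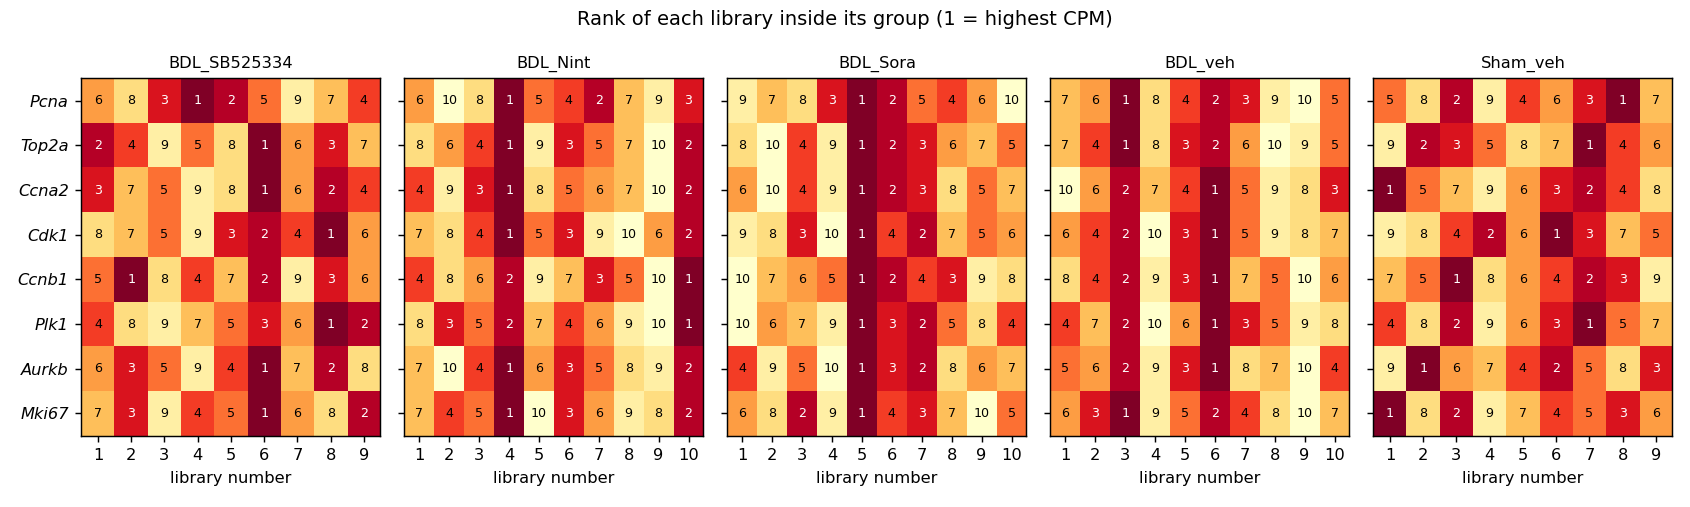
Rank of each library within its group (1 is the highest CPM, dark) for each gene (rows) by library number (columns). Vehicle libraries 3 and 6, Nint library 4 and Sora library 5 are among the top 2 of their group in all 8 genes, while no SB525334 or sham library is.

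Ratios of counts between members within a library do not depend on how libraries are scaled. Both ratios here were chosen after the values were seen and carry no test. Ccnb1 per Cdk1 was 0.218 to 1.05 (median 0.582) in BDL_SB525334, 0.521 to 1.80 (median 0.961) in BDL_Nint, 0.662 to 1.55 (median 0.929) in BDL_Sora, 0.750 to 1.51 (median 0.839) in BDL_veh and 5.79 to 14.4 (median 9.52) in Sham_veh libraries. No library of the 39 from ligated rats came near the sham range, whichever compound it had. Pcna per Top2a was 3.17 to 10.9 (median 4.95) in BDL_SB525334, 1.15 to 3.42 (median 2.21) in BDL_Nint, 1.13 to 2.06 (median 1.33) in BDL_Sora, 1.27 to 2.64 (median 2.31) in BDL_veh and 3.47 to 6.22 (median 4.78) in Sham_veh libraries. SB525334 libraries thus all lay above the vehicle range in this ratio. They ran past both ends of the sham range, chiefly its upper end, at mean levels of both genes above those of sham.

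**Figure D4:**
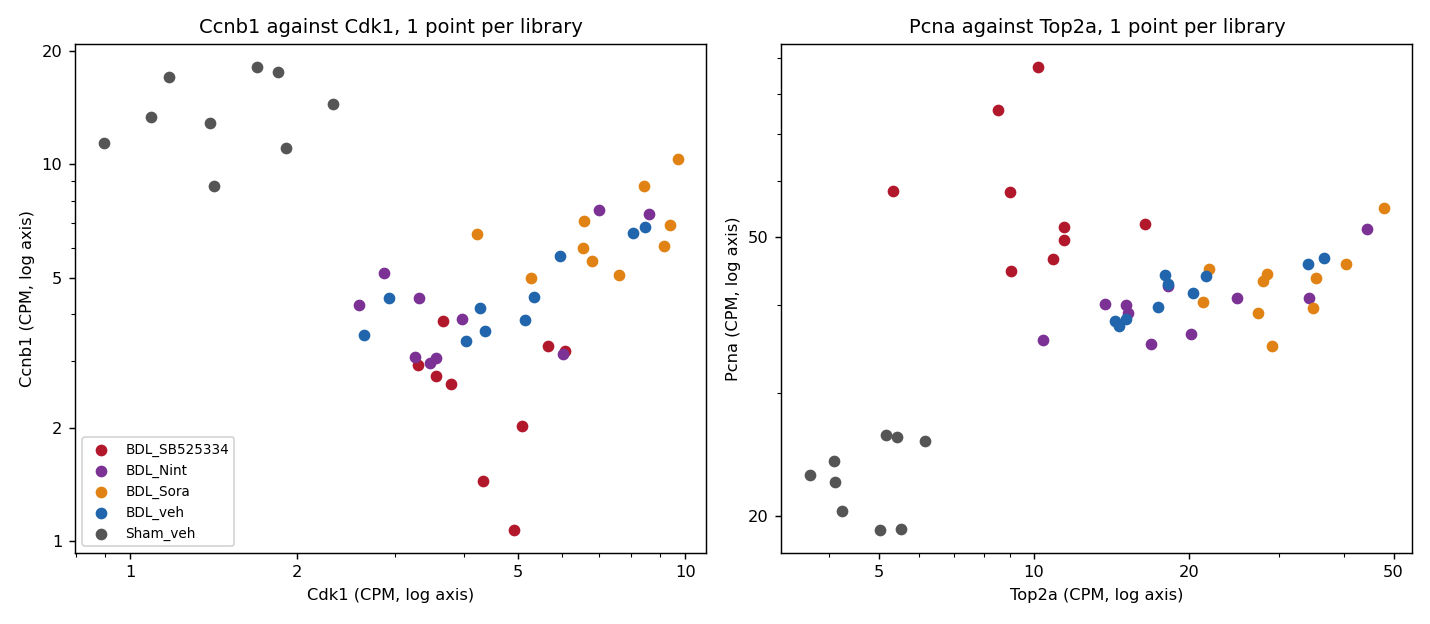
Ccnb1 against Cdk1 (left) and Pcna against Top2a (right), in CPM on log axes, with 1 point per library and a colour per group. Sham libraries form a separate cloud at high Ccnb1 and low Cdk1, and SB525334 libraries lie at high Pcna, 44.7 CPM or more, with Top2a at 16.5 CPM or less.

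The order of the groups therefore differed by gene. By mean CPM, Top2a, Ccna2 and Aurkb ran from BDL_Sora through BDL_Nint, BDL_veh and BDL_SB525334 to Sham_veh. In these 3 the neighbouring steps among BDL_Sora, BDL_Nint and BDL_veh were not called, though BDL_Sora over BDL_veh was. The steps down to BDL_SB525334 and to Sham_veh were called. As given above, both steps of Ccna2 and Aurkb were lost in some alternatives, and that of Top2a to Sham_veh with limma-voom. Ccnb1 and Plk1 ran from Sham_veh through BDL_Sora, BDL_veh and BDL_Nint to BDL_SB525334, with means of 13.8 and 4.86 CPM at the top and 2.57 and 1.44 CPM at the bottom. Here the step from BDL_veh to BDL_Nint was not called in either gene, nor that from BDL_Sora to BDL_veh in Plk1. With total counts the step from BDL_Sora to BDL_veh in Ccnb1 and that from Sham_veh to BDL_Sora in Plk1 were lost. With the quality component both called steps of Plk1 were lost. Pcna ran from BDL_SB525334 (58.2 ± 14.3 CPM, SD, n = 9) through BDL_Sora, BDL_veh and BDL_Nint, which were not told apart, to Sham_veh (22.8 ± 2.80 CPM, n = 9). Its step from BDL_SB525334 to BDL_Sora was not called with total counts or with the quality component. In Cdk1 the steps from BDL_Sora to BDL_veh and from BDL_Nint to Sham_veh were called, and those between BDL_veh, BDL_SB525334 and BDL_Nint were not. The step of Cdk1 from BDL_Sora to BDL_veh was lost with RLE factors, total counts and DESeq2. In Mki67 the 4 ligated groups, with means of 32.8 to 40.6 CPM, were not told apart step by step, and Sham_veh lay below them at 11.4 ± 6.43 CPM (SD, n = 9).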

How the data were processed

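Total RNA was prepared from the slices with an RNeasy 96 kit and sequenced with Illumina libraries, per the labels' protocols. The deposited table holds expected counts per gene, not normalised by the authors; RSEM, edgeR and build Rnor_6.0 are named without versions, per the submitters' processing notes, and no aligner or annotation release is named. Of the deposited counts, 8.02% were not whole at a tolerance of 1e-06, and they were rounded. A table of log2 CPM by the authors (14418 genes) and 172 other quality metrics, as scores and rates, were deposited too. In these metrics 98.73% or more of read pairs in each library lay on 1 strand; the strand setting of the counting is not given, so overlapping genes are uncertain. The RefSeq table lists pseudogenes of Pcna, Cdk1 and Mki67, whose reads RSEM may share.

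Genes were filtered with filterByExpr, which left 14775 of 32883, scaled with TMM and tested with edgeR 4.0.16 (glmQLFit, robust, and glmQLFTest; R 4.3.3) in 1 fit of 48 libraries and 5 groups. There were 10 comparisons, two-sided, each adjusted over all genes tested. SE come from the F statistic and 95% intervals from its degrees of freedom. Alternatives used DESeq2 1.42.0 and limma 3.58.1. The test was also run on simulated counts in which only a small part of the genes changed, in 1 group. Those counts lacked the broad shifts seen here, so the run cannot vouch for the scaling. Counts of 207 pairs of libraries within groups differed by a chi-square of at least 3.94 per degree of freedom, so no pair was 1 library sequenced again. Separate libraries from the same slice or rat would not be seen by this. The first component of the 151 quality metrics that varied held 35.7% of their variance. Total counts of 12249454 to 29596955 set the precision, and intervals do not cover more than the spread between libraries. Members, lists and tests were chosen with earlier results of these data known. Lists of other cell-cycle genes and of cell type markers were fixed by symbol and could not be used, since 0 Ensembl IDs stand in the reference table. All members are named; of other genes, the 2 IDs whose log2 CPM (prior count 2) correlated best with the members' mean are given.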

Additional observations from a re-analysis of the deposited data

Results flagged for a closer look

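Pcna in Nint library 4 stood at 51.3 CPM, apart from the other 9 libraries of its group, the next of which was at 42.5 CPM. It was the only such value among 40 sets of libraries (8 genes in 5 groups), and chance alone marks about 1 in 20 such sets. The same library was the highest of its group in 6 of the 8 genes.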

How the results depend on the processing

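Counts of members called kept within 1.5 times of the values above under 13 alternatives, with these exceptions. For BDL_Sora over BDL_veh (5) they were 3 with RLE factors, 3 with DESeq2, 2 with total counts and 0 at an absolute log2 fold change of at least 1, and 1 to 6 when leaving out each library. For BDL_SB525334 over BDL_veh (6) they were 2 with the quality component and 1 at a log2 change of at least 1. For BDL_Nint over BDL_Sora (2) they were 6 with limma-voom, 1 with plate column and 0 at a log2 change of at least 1, and 0 to 4 when leaving out each library. For BDL_SB525334 over BDL_Sora (7) they were 4 and over BDL_Nint (6) 3 with the quality component, and over BDL_Nint 1 at a log2 change of at least 1. For BDL_SB525334 over Sham_veh (8) limma-voom gave 5, without Top2a, Ccna2 and Aurkb. The cause was not tested, apart from the threshold of 1, which by construction passes fewer.

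Every single log2 change that turned sign was without a call before and after. For Nint over vehicle, Top2a was -0.0070 (RLE), -0.0033 (total counts), -0.0062 (DESeq2), -0.045 (authors' log2 CPM) and -0.0027 (replicate block). Mki67 was 0.061 (limma-voom), 0.0049 (plate column) and 0.22 without vehicle libraries 3 and 6, and without these libraries Ccnb1 was 0.11 (0.13 with plate column) and Cdk1 0.037. For Sora over vehicle, Pcna was -0.013 (total counts) and -0.0012 (quality component). For SB525334 over vehicle, Mki67 was -0.27 (total counts) and Cdk1 0.049 (without vehicle libraries 3 and 6). Mki67 for SB525334 was 0.037 over Sora (quality component) and -0.22 over Nint (total counts). Cdk1 for SB525334 over Nint was -0.029 (RLE), -0.37 (total counts), -0.030 (DESeq2), -0.0049 (2 groups alone), -0.0057 (plate column), -0.0068 (quality component) and -0.089 (without SB525334 libraries 1, 6 and 8). Leaving out each library gave -0.00091 to 0.074 for Pcna (Sora over vehicle), -0.053 to 0.17 for Cdk1 (SB525334 over Nint) and, for Nint over vehicle, -0.17 to 0.14 (Top2a), -0.0078 to 0.27 (Ccna2), -0.17 to 0.016 (Ccnb1) and -0.13 to 0.084 (Mki67).

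Correlations of same-numbered libraries' deviations ran from -0.28 to 0.55, and in no comparison were all over 0.1 (at most 5 of 10), so numbers were not taken as pairs. Differently numbered libraries were not correlated for comparison, so this check cannot exclude that some same-numbered slices share a rat. With the replicate block the counts of members called were 8, 5, 0, 6, 2, 7, 6, 8, 8 and 8 in the 10 comparisons, as without it. Plate column 4 alone holds all 5 groups, with 1 to 3 libraries each, too few for a test within it, and BDL_veh has no library in columns 1 and 2. Depth limits Ccna2, Aurkb, Cdk1, Plk1 and Ccnb1, with 9 to 12 counts in their sparsest libraries.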

Other observations

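Plk1 and Aurkb, a pair of mitotic kinases, parted between sham and ligated slices as Ccnb1 and Cdk1 did. Plk1 per Aurkb, a ratio of counts within a library, was 0.282 to 1.15 (median 0.538) in BDL_SB525334, 0.375 to 0.765 (median 0.427) in BDL_Nint, 0.364 to 0.614 (median 0.556) in BDL_Sora, 0.455 to 0.808 (median 0.589) in BDL_veh and 1.34 to 6.22 (median 2.21) in Sham_veh libraries. Every sham library lay above every ligated one. Mki67 per Top2a was 2.89 to 5.16 (median 3.67) in BDL_SB525334, 1.18 to 2.19 (median 1.55) in BDL_Nint, 1.10 to 1.497 (median 1.30) in BDL_Sora, 1.43 to 1.72 (median 1.61) in BDL_veh and 0.716 to 6.98 (median 2.15) in Sham_veh libraries. In vehicle libraries this ratio hardly varied, although Mki67 itself varied by 2.38 times, and every SB525334 library lay above that range. These ratios were chosen after the values were seen and carry no test.

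Of the other genes tested, ENSRNOG00000024428 and ENSRNOG00000055111, which no source used here names, followed the mean of the members most closely over 48 libraries (Pearson 0.93 and 0.92, a description over libraries that fall into groups). ENSRNOG00000024428 averaged 2.62 CPM in BDL_SB525334, 5.59 CPM in BDL_Nint, 8.45 CPM in BDL_Sora, 6.09 CPM in BDL_veh and 1.94 CPM in Sham_veh slices, the same order as Top2a but for BDL_Nint and BDL_veh. Among the members, each a part of that mean, this correlation was 0.94 for Top2a, 0.94 for Ccna2, 0.88 for Aurkb and 0.87 for Cdk1. It was 0.77 for Mki67, 0.49 for Pcna, 0.21 for Plk1 and 0.036 for Ccnb1. As deviations from group means, Ccnb1 correlated with the other members at 0.39 to 0.72, and Plk1 at 0.33 to 0.76.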
